A study of Mus musculus with 8 samples.

Results

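The sites described here are isolated positions of trimethylated lysine 27 of histone H3 (H3K27me3) that were listed in stimulated macrophages and had no counterpart nearby in untreated ones. They were chosen by measured values: an autosomal position of the 4 h H3K27me3 list qualified when its overlap count (the authors' tally of overlapping sequenced fragments at the position) was 13 or more and no position of the 0 h H3K27me3 list lay within 5 kb. The rule found 2509 of the 45902 autosomal 4 h positions of that count, a share of 5.47% (the background of this rule), or of the 89093 positions in the whole 4 h list. The 43393 other positions of that count, which had a 0 h position within 5 kb, served as the comparison. "Isolated" refers to the 0 h list alone, since a site could have other 4 h positions beside it.

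H3K27me3 is the mark that Polycomb repressive complex 2 lays down on silent developmental and lineage genes. Polycomb complexes bind it and it often covers broad domains. Jmjd3 is a demethylase that removes the mark, and inflammatory stimuli are known to induce it in macrophages. Trimethylation of lysine 4 (H3K4me3) marks active and poised promoters, and RNA polymerase II (Pol II) marks transcribed genes.

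Chromatin immunoprecipitation followed by sequencing had been done on primary macrophages grown from the bone marrow of female Fvb mice, 6 to 8 weeks old. Cells were left untreated (0 h) or given lipopolysaccharide with interferon gamma for 2 or 4 h. The 8 libraries were H3K27me3 and H3K4me3 at 0 and 4 h, Pol II at 0, 2 and 4 h, and Jmjd3 at 2 h. Each group had 1 library, which leaves changes over time without replicates, and p-values were not calculated. Whether macrophages of several mice were pooled is not given in the sources used here.

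Overlap counts were not scaled to depth, which the labels give only as over 10000000 uniquely mapped tags per library. The 0 h H3K27me3 list held 59684 positions from a count of 9 upwards, with a median of 12, and the 4 h list began at 10 with a median of 13. Intervals in brackets are exact 95% binomial (Clopper-Pearson) intervals for a share and 95% Wald intervals for a difference. They cover counting error only, because neighbouring positions share the same chromatin and often the same neighbour in another list. All coordinates are on mm8, and no gene annotation of that build was used here, so sites are named by position.

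Most isolated new sites were low. Their counts ran from 13 to 83 with a median of 14, and 1096 of them sat at the lowest permitted count of 13 and 602 at 14. Only 62 reached 20 or more. The comparison positions had a median of 18 and a highest count of 401. Since the count was part of the rule, these values describe the sites and test nothing.

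The share of positions that were isolated and new fell as the count went up. It was 15.1% (14.3 to 15.9) at a count of 13, 10.7% (9.88 to 11.5) at 14, 5.12% (4.41 to 5.90) at 16 and 1.49% (0.944 to 2.22) at 20. Among the 10791 positions of count 27 or more, 6 qualified (0.0556%, 0.0204 to 0.121). All 6 lay in 1 run on chromosome 11, described below, so they are 1 place, which the interval does not take into account. Just outside the rule, at a count of 12, 1817 of 9331 positions (19.5%, 18.7 to 20.3) had no 0 h position within 5 kb. The threshold of 13 therefore cut through a continuous slope.

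**Figure D1:**
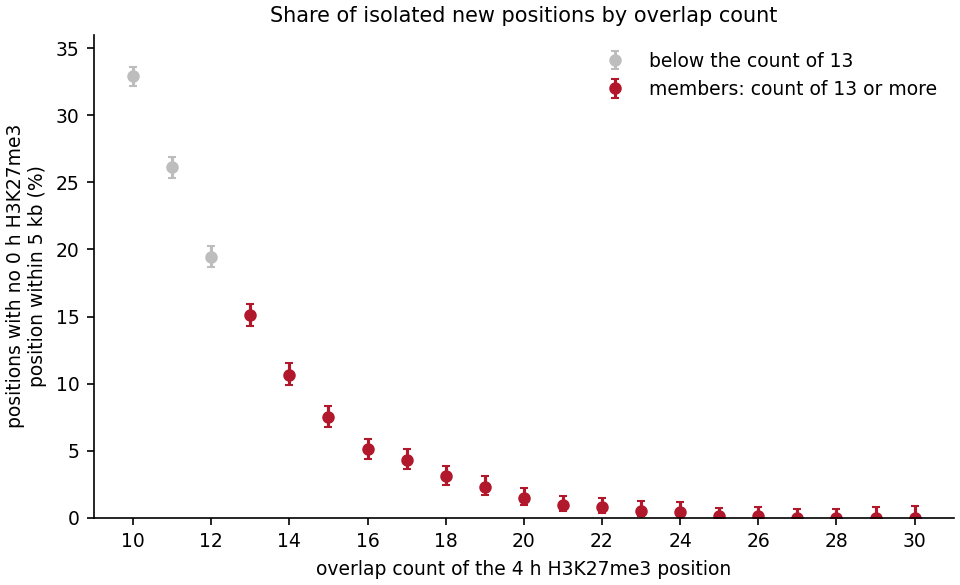
Percentage of autosomal 4 h H3K27me3 positions with no 0 h position within 5 kb (vertical axis) at each overlap count from 10 to 30 (horizontal axis), with exact 95% intervals. The share goes from 32.9% at a count of 10 to 15.1% at 13, where membership begins, and to 0 of 583 positions at 27.

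The 0 h list stops at a count of 9, which bears on what "new" can mean for a low site. At 4 h positions of count 13 with a 0 h position within 250 bp (2503 of them), the 0 h count had a median of 11 and quartiles of 9 and 12. At 4 h positions of count 20 the median 0 h count was 14, with quartiles of 11 and 16. A 0 h signal slightly under 9 would thus leave a low 4 h position without a listed partner. A shallower 0 h library and less H3K27me3 at 0 h cannot be told apart in these lists. In the other direction, 435 of the 24595 autosomal 0 h positions of count 13 or more had no 4 h position within 5 kb (1.77%, 1.61 to 1.94).

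The isolated new sites were spread over all 19 autosomes. Chromosome 2 held the most (225) and chromosome 19 the fewest (79). As a share of the 4 h positions of count 13 or more on the same chromosome, they ranged from 3.77% (3.18 to 4.43) on chromosome 7 to 8.20% (6.93 to 9.61) on chromosome 14.

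Distance to untreated H3K27me3 had a median of 12.4 kb and a highest value of 3017 kb. Of the 2509 sites, 1024 (40.8%) lay 5 to 10 kb from a 0 h position, 640 (25.5%) at 10 to 20 kb, 461 (18.4%) at 20 to 50 kb, 195 (7.77%) at 50 to 100 kb and 189 (7.53%) beyond 100 kb. At the edge of the rule, the 142 sites at 5 to 5.5 kb and the 232 comparison positions at 4.5 to 5 kb had the same median count of 14.

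One run of sites on chromosome 11 stood apart from all the others in height. The 6 tallest isolated new sites all lay in it, between positions 69216276 and 69223665, a span of 7.39 kb. Their counts, in order along the chromosome, were 61, 53, 50, 83, 49 and 46. The next tallest isolated new site had a count of 26. Within the 4 h list as a whole such counts were uncommon but not extreme: 6.07% of autosomal positions reached 46 or more and 1.68% reached 83 or more.

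No 0 h H3K27me3 position was listed in this run. The nearest, at 69232068 and 69237446, had counts of 10 and 16 and lay 11.3 and 16.7 kb from the tallest site. At 4 h each kept a partner close by, with counts of 12 at 69232074 and 16 at 69237583. The neighbouring untreated positions were thus listed at similar counts at both times, whereas the 6 sites were listed only at 4 h.

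H3K4me3 flanked the run on both sides. In untreated cells 1 cluster spanned 69209804 to 69214466 (count 222), 1.81 kb before the first site, and another spanned 69223797 to 69228961 (count 140), 0.132 kb after the last. A further 0 h cluster lay at 69230931 to 69238055 (count 88). At 4 h the cluster before the run was again listed, at 69210250 to 69214287 (count 139). On the other side a single 4 h cluster covered 69221484 to 69237497 (count 177, width 16014 bp). It took in the last 2 of the 6 sites, at 69222562 and 69223665. Only 12 of the 19060 autosomal 4 h clusters were wider (0.0630%).

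Pol II in and within 500 bp of the run was listed at 2 positions at 0 h (counts 9 and 18), at 5 positions at 2 h (counts 10 to 29) and at no position at 4 h. The Pol II lists start at counts of 9, 10 and 11 at 0, 2 and 4 h. A position of count 9 or 10 could thus not be listed at 4 h. The 2 h positions, at 69215986, 69217639, 69220130, 69220718 and 69223692, were spread along its whole length. Pol II at 4 h was listed on both sides, at 69214373 (count 11) and at 69224934 (count 23), each outside the stretch that held the H3K27me3 sites. Near the second cluster Pol II was listed at all times, at 69227063 at 0 h (count 42), 69227179 at 2 h (72) and 69227165 at 4 h (48). The single Jmjd3 position of the region, 69227334, had a count of 10, in a list that starts at 9. This Jmjd3 position lay beside these Pol II positions, 6.55 kb from the tallest site. It was 4.77 and 3.67 kb from the last 2 sites, which are among the 32 sites with Jmjd3 within 5 kb described below. These values come from 1 library each, and their order in time was not tested.

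**Figure D2:**
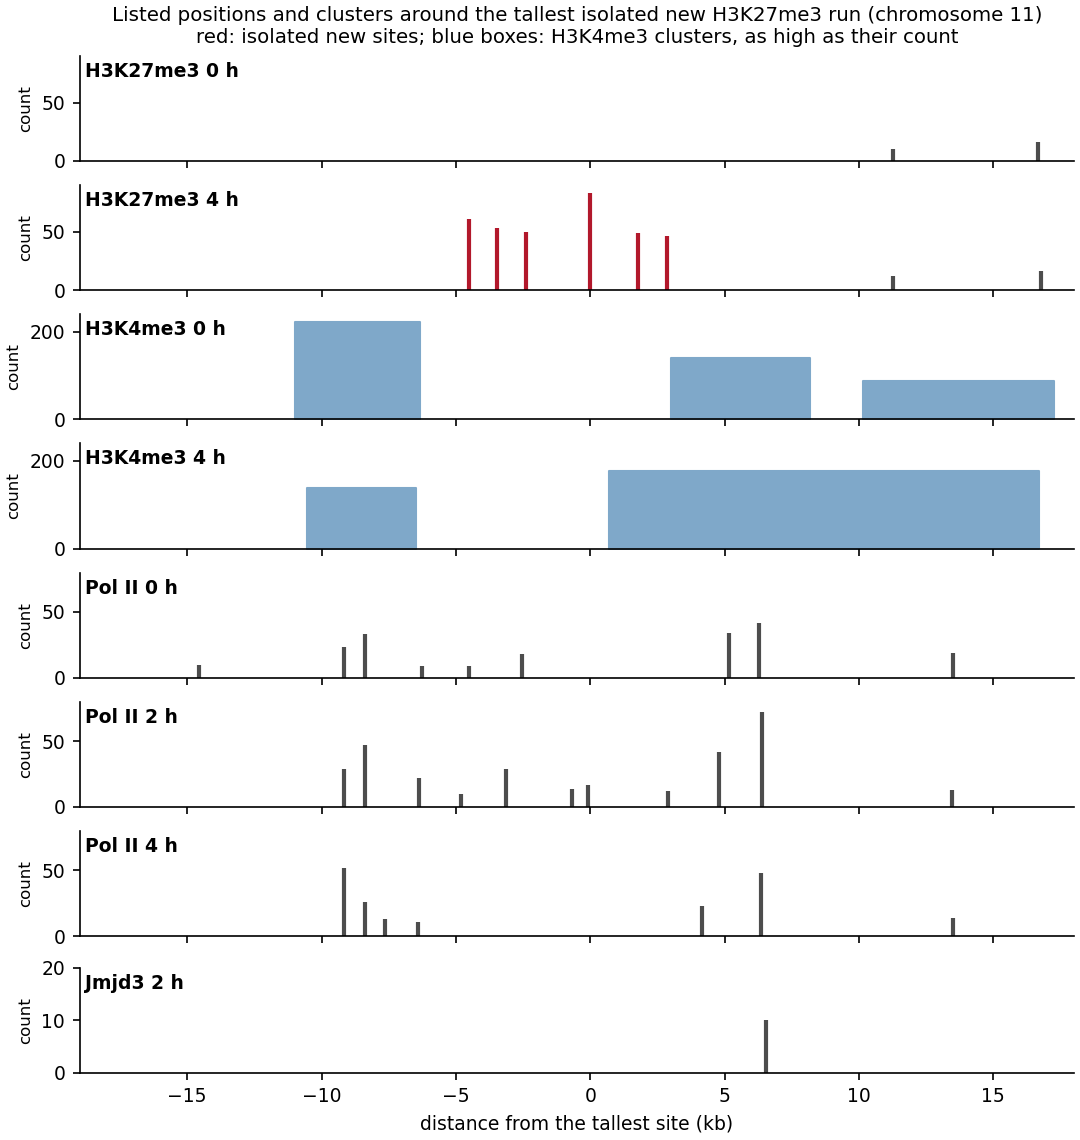
Overlap count (vertical axes) of every listed position or cluster in the 8 libraries, against distance in kb from the tallest site (horizontal axis) on chromosome 11. The 6 isolated new sites (red, counts 46 to 83) occupy a stretch with no 0 h H3K27me3. In it and within 500 bp, Pol II was listed at 2 positions at 0 h, 5 at 2 h and none at 4 h. The Pol II lists start at counts of 9, 10 and 11 at these times.

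A second run of 6 sites, on chromosome 2 from 74612095 to 74624597 (12.5 kb), was low throughout. Its counts were 18, 14, 18, 15, 19 and 13, and 3 further 4 h positions of count 10 or 11 lay between them. The nearest 0 h position, at 74602793, had a count of 11 and was 9.30 kb from the first site. The run ended just before a H3K4me3 cluster that was present at both times (233 at 0 h, 232 at 4 h). That cluster held a Jmjd3 position (74626703, count 9, the lowest count of its list) and Pol II at all 3 times (31, 59 and 52 at 0, 2 and 4 h). Neither H3K4me3 nor Pol II was listed inside the run or within 500 bp of it.

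Runs of 4 sites lay on chromosome 4 (118851557 to 118857489, counts 14 to 16; 137699334 to 137705053, each with a count of 13) and on chromosome 7 (121967572 to 121972084, counts 13 to 15). At the first of these, an H3K4me3 cluster at 118856745 to 118858094 was listed at 4 h and none at 0 h within 15 kb. Its count of 14 was low, as both H3K4me3 lists start at 11. No Pol II or Jmjd3 position was listed in that window at any time. Beside the chromosome 7 run, Pol II was listed at 0 h from 121962095 to 121964028 with counts of 17, 20 and 9. It was listed at 2 h at 121960747 and 121961413 with counts of 10 and 17, and nowhere within 15 kb of the run at 4 h. Counts of 9 and 10 lie under the lowest count of the 4 h Pol II list, which is 11.

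Outside the chromosome 11 run the tallest sites had counts of 26 (1 site), 25 (1) and 24 (4), and the 10 tallest take in the first 2 of the 4 tied at 24 by chromosome order. These other 4 sites among the 10 tallest had no H3K4me3 or Pol II within 15 kb at any time. Position 114194925 on chromosome 13 (count 26), position 25209436 on chromosome 18 (25) and position 19381595 on chromosome 2 (24) lay 37.8, 101 and 89.1 kb from H3K4me3 at 4 h and 86.2, 103 and 74.9 kb from Pol II at 4 h. Position 105796315 on chromosome 3 (24) was closer, at 17.7 and 19.1 kb. Of the 4 it was nearest to the rule's edge, with a 0 h position at 5.12 kb. The first pair had 4 and 3 other 4 h positions within 5 kb, and the second pair had none.

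Crowding separated the isolated new sites from the comparison. Another 4 h H3K27me3 position, of any count, lay within 5 kb of 1441 sites (57.4%, 55.5 to 59.4), against 95.1% of the comparison and 93.0% of all 45902 positions. Weighted to the sites' own counts, the comparison stood at 94.7%, a difference of -37.3 percentage points (-39.3 to -35.3). A site had a median of 1 other 4 h position within 5 kb and a comparison position had 5. The comparison lay near 0 h positions by the rule, and 0 h and 4 h positions fall in the same domains, so this difference is partly built into the choice and is given as a description.

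Company, where there was any, was mostly weak. No other 4 h position lay within 5 kb of 1068 sites (42.6%, 40.6 to 44.5), against 5.27% of the count-matched comparison. None lay within 20 kb of 369 sites (14.7%, 13.3 to 16.2). Another 4 h position was thus within 20 kb of 85.3% of sites, against 98.2% of the count-matched comparison. For 883 sites (35.2%) every neighbour within 5 kb had a count of 10 to 12. Another isolated new site lay within 5 kb of 427 (17.02%), and a comparison position within 5 kb of 162 (6.46%). The last 3 shares were not calculated for the comparison, so they describe the isolated new sites only. Joined where they were under 5 kb apart, the 2509 sites formed 2279 groups. Of these, 2082 held 1 site, 173 held 2, 19 held 3, 3 held 4 and 2 held 6. With all 4 h positions included, 1925 sites sat in runs in which every position was over 5 kb from the 0 h list, and the longest such run spanned 17.8 kb. The other 584 belonged to runs that reached closer to untreated H3K27me3.

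**Figure D3:**
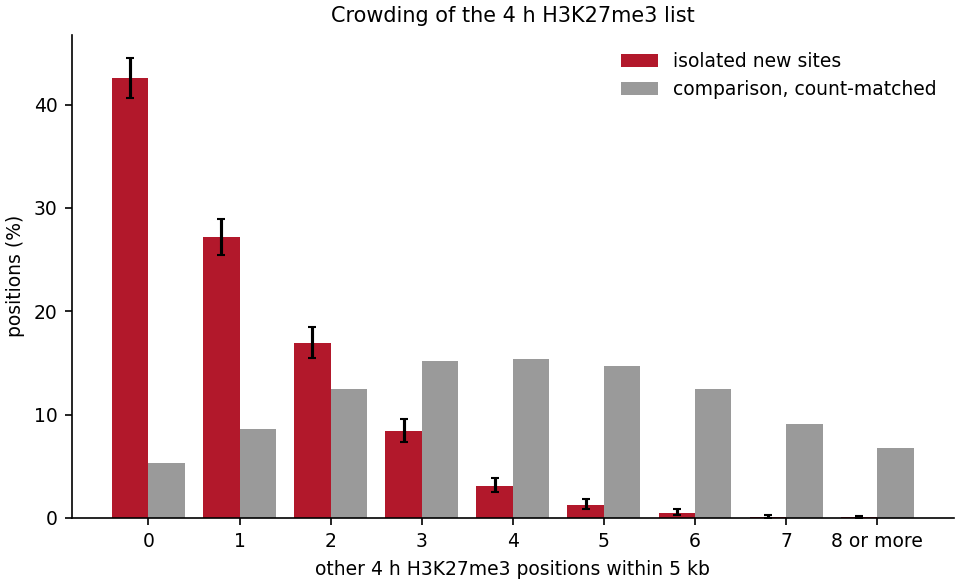
Percentage of positions (vertical axis) by the number of other 4 h H3K27me3 positions within 5 kb (horizontal axis), for isolated new sites (red, with exact 95% intervals) and the comparison weighted to the same counts (grey). The sites concentrate at 0 and 1 neighbour (42.6% and 27.2%), where the comparison holds 5.27% and 8.65%.

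H3K4me3 was listed less often beside isolated new sites than beside comparison positions of the same count. A 4 h cluster lay within 5 kb of 230 sites (9.17%, 8.07 to 10.4), and a 0 h cluster within 5 kb of 242 (9.65%, 8.52 to 10.9). Over all 45902 positions the shares were 37.1% at 4 h and 36.8% at 0 h. Taller H3K27me3 positions had H3K4me3 nearby more often, so the comparison was weighted to the sites' counts. It then stood at 24.4% at 4 h and 24.6% at 0 h, and the differences were -15.3 points (-16.5 to -14.0) and -14.9 points (-16.2 to -13.6). Within 250 bp, 99 sites met a 4 h cluster (3.95%, 3.22 to 4.78; 18.7% of all positions), a difference of -2.19 points (-3.01 to -1.37) from the 6.14% of the count-matched comparison.

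Several comparison positions often lie beside the same cluster, and the size of the difference depended on how they were counted. With 1 position kept per run of 4 h positions, the tallest of its set, the difference at 4 h narrowed to -4.47 points (-6.07 to -2.86). This kept 2221 isolated new sites, 1 for each run that held any, also where the run held comparison positions. Weighted to crowding as well as count, it was -13.4 points (-15.0 to -11.7).

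The H3K4me3 clusters that did lie near isolated new sites were more often tall than those beside comparison positions, which were not matched on count here. Of the 205 clusters of 4 h nearest to a site within 5 kb, 17.1% were above 194, the upper quartile of the autosomal list, against 4.60% of the 4935 clusters near comparison positions alone. At 0 h these shares were 16.1% of 218 and 5.13% of 4912. Their median counts were 65 against 46 at 4 h and 51.5 against 45 at 0 h, with the whole autosomal lists at 99 and 78. Clusters near any of these H3K27me3 positions were thus usually below the median of their list, and those of the sites included a larger share from its top end.

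H3K4me3 turnover was examined among sites with a cluster nearby. Of the 242 sites with H3K4me3 within 5 kb at 0 h, 36 had none at 4 h (14.9%, 10.6 to 19.995), against 9.51% of the count-matched comparison and 7.01% of all positions with it at 0 h. The difference was 5.37 points (0.813 to 9.92). In the other direction, 24 of the 230 sites with H3K4me3 at 4 h had none at 0 h (10.4%, 6.80 to 15.1), against 8.91% in the comparison and 7.79% over all positions. That difference of 1.53 points (-2.49 to 5.55) has an interval that includes 0. The 4 h H3K4me3 list is the shorter of the pair (19631 clusters against 21418), and its part in the first value was not tested.

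The 2 tallest sites at a 4 h H3K4me3 cluster, both in the chromosome 11 run, lay 1.24 and 0.132 kb outside the nearest 0 h cluster. Apart from that run, the tallest sites named at a 4 h cluster lay in clusters listed at both times. Among them were position 96266600 on chromosome 3 and position 126443952 on chromosome 10, both with a count of 20. Each lay inside an H3K4me3 cluster of both times, with counts of 50 and 38 for the first and 177 and 199 for the second at 0 and 4 h. Pol II was within 1.05 kb of both at every time. Position 97813541 on chromosome 4 (count 19) lay in a cluster of count 65 at both times, with Pol II at 2 h 8.96 kb away (10) and at 0 and 4 h over 60 kb away.

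Pol II was listed near few isolated new sites, and at nearly equal shares at the 3 times. In untreated cells a position lay within 5 kb of 139 sites (5.54%, 4.68 to 6.51). After 2 h of stimulation the number was 140 (5.58%, 4.71 to 6.55), and after 4 h it was 135 (5.38%, 4.53 to 6.34). For 0, 2 and 4 h in turn, all 45902 positions had 8.36%, 9.44% and 8.49%, and the count-matched comparison had 6.18%, 6.93% and 6.39%. The 0 h difference from the latter was -0.636 points, with an interval that includes 0 (-1.59 to 0.318). The 2 h difference was -1.35 (-2.32 to -0.392), and the 4 h difference was -1.01 (-1.95 to -0.0613). The sign at 2 and 4 h turned when the rule asked for a 0 h distance of 10 or 20 kb or a count of 16 or 20, and with crowding matched too the 3 differences were -5.82, -6.41 and -5.65, so no single direction held.

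Under the main rule, Pol II that appeared after stimulation was less frequent near the isolated new sites than near comparison positions of the same count. At 48 sites Pol II was within 5 kb at 2 or 4 h and not at 0 h (1.91%, 1.41 to 2.53), against 3.02% in the count-matched comparison and 3.80% of all positions, a difference of -1.11 points (-1.70 to -0.526). The 0 h Pol II list stops over 1 Mb early on 6 autosomes, where 80 sites lie. With those ends not counted as new the difference was -0.937 (-1.51 to -0.361). The other alternatives, some of which turned the sign of the Pol II differences above, were not run for this pattern.

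The 5 tallest of these 48 sites each lay within 199 bp of Pol II at 2 or 4 h. Position 73359372 on chromosome 6 (count 22) was 175 bp from a 2 h Pol II position of count 11, with Pol II at 0 and 4 h and H3K4me3 over 150 kb away. Position 103479666 on chromosome 2 (21) was 94 bp from Pol II at 2 h (11), with weak H3K4me3 within 5 kb at both times (35 and 14). Position 154338739 on chromosome 1 (19) was 81 bp from Pol II at 2 h (13) and 17 bp from Pol II at 4 h (18). Position 42403842 on chromosome 10 (19) was 4 bp from Pol II at 4 h (13) and inside H3K4me3 clusters of both times, but only 5.003 kb from the nearest 0 h H3K27me3. Position 12631905 on chromosome 10 (19), 119.5 kb from 0 h H3K27me3, had Pol II at 543 bp at 2 h (41) and 199 bp at 4 h (17). It lay in a 4 h H3K4me3 cluster of count 12, near the lowest listed count of 11. The nearest 0 h H3K4me3 cluster was 17.7 kb away.

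Jmjd3 was near 32 of the 2509 isolated new sites (1.28%, 0.874 to 1.80, within 5 kb), against 2.29% of all positions. The count-matched comparison had 1.64%, and the difference of -0.367 points (-0.838 to 0.104) has an interval that includes 0. It excluded 0 under 6 alternatives, with values from -1.65 to -0.353, and the sign turned under 3. The median distance to Jmjd3 was 206 kb for the sites and 167 kb for the comparison. H3K4me3 was also within 5 kb of 27 of the 32 sites and Pol II at 2 h of 26, and 3 had neither H3K4me3 nor Pol II at any time. Of the 1019 comparison positions with Jmjd3 within 5 kb, not matched on count, these numbers were 909, 825 and 66. Such company was thus usual for Jmjd3 in both sets. The 28 Jmjd3 positions near the isolated new sites had a median of 10, as did the whole autosomal Jmjd3 list. Of these, 10.7% exceeded 13, the upper quartile of that list, against 36.1% of the 545 near comparison positions alone, which were not matched on count.

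At 7 sites Jmjd3 lay within 250 bp (0.279%, 0.112 to 0.574; 0.599% of all positions). The count-matched comparison had 0.287%, and the difference of -0.00841 points (-0.227 to 0.210) has an interval that includes 0. Position 31299176 on chromosome 17 (count 18) was 1 bp from a Jmjd3 position (count 20) and 5 bp from Pol II at 2 h (17), with a 0 h H3K4me3 cluster of count 11 over it. A 4 h H3K4me3 cluster of count 154 lay 3.52 kb from this site, and Pol II at 0 and 4 h was 5.48 and 5.57 kb away. Position 57979838 on chromosome 19 (17) was 4 bp from Jmjd3 (10) and 158 bp from Pol II at 2 h (17), with Pol II at 0 and 4 h 187 kb away and H3K4me3 at 4 h 159 kb away. Position 75539258 on chromosome 8 (16) was 43 bp from Jmjd3 (11) with no Pol II within 38 kb and a 4 h H3K4me3 cluster of count 11 at 2.61 kb. At these 3 places H3K27me3 of 4 h and Jmjd3 of 2 h thus lay within 43 bp of each other. The Jmjd3 list starts at a count of 9, so the Jmjd3 counts of 10 and 11 were near its lowest.

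The other 4 sites with Jmjd3 so close were lower. Position 78169763 on chromosome 5 (14) lay inside H3K4me3 clusters of 165 and 193 at 0 and 4 h and was within 234 bp of Pol II of 12, 93 and 30 at 0, 2 and 4 h, with Jmjd3 at 97 bp (18). Position 122373365 on chromosome 2 (14) and position 115987838 on chromosome 6 (13) lay in weak clusters of both times, with counts of 12 to 19. Position 183136027 on chromosome 1 (13) was 36 bp from Jmjd3 (10) and over 40 kb from H3K4me3 and Pol II.

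**Figure D4:**
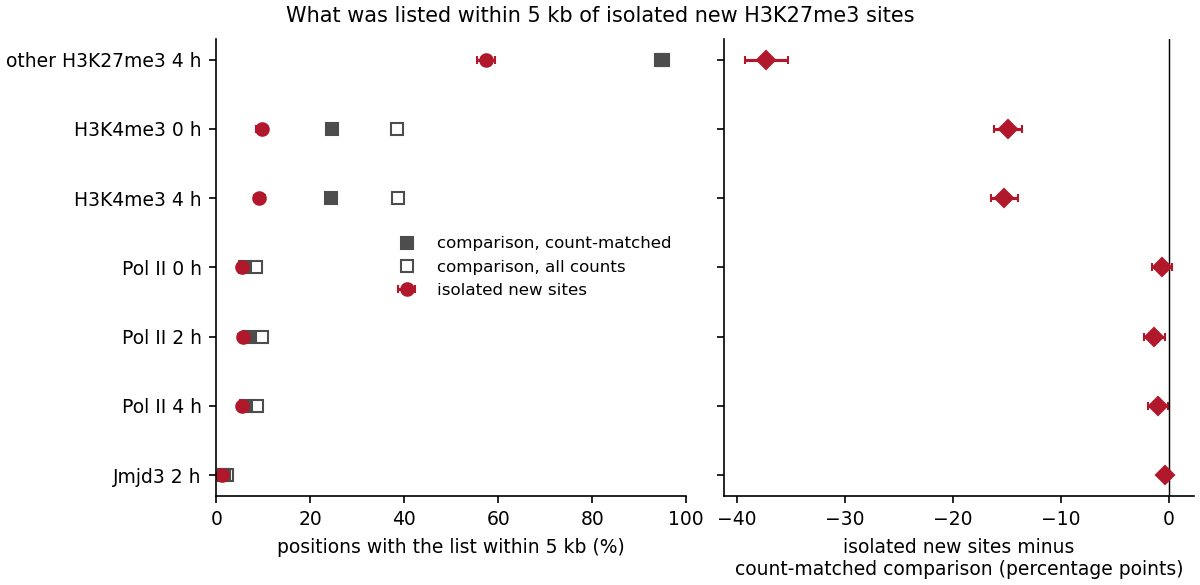
Left, percentage of positions with each list within 5 kb (horizontal axis) for isolated new sites (red, exact 95% intervals) and the comparison with and without weighting to the sites' counts (filled and open squares). Right, the difference from the count-matched comparison with 95% Wald intervals, which is -15.3 points for H3K4me3 at 4 h and includes 0 for Pol II at 0 h and for Jmjd3.

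H3K4me3, Pol II and Jmjd3 were all absent from the surroundings of most isolated new sites, whether or not other H3K27me3 was listed there. None of these lists, at any time, had an entry within 20 kb of 1444 sites (57.6%, 55.6 to 59.5), against 40.2% of the count-matched comparison and 32.4% of all positions. The difference was 17.3 points (15.3 to 19.4). The 5 sites farthest from untreated H3K27me3 were on chromosomes 3 and 8. Position 76160565 on chromosome 3 (count 19) was 3017 kb from a 0 h position and 117 kb from H3K4me3 at both times. Position 101771685 on chromosome 8 (14) was 2950 kb from one. It lay inside a 4 h H3K4me3 cluster of count 12, near the lowest listed count of 11. The nearest 0 h H3K4me3 cluster was 2993 kb away. The other three, positions 76128954 and 75250906 on chromosome 3 and 52414181 on chromosome 8, had a count of 13.

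The isolated new sites were not alike along the distance to untreated H3K27me3. Over 4 h positions of count 13 to 19, H3K4me3 of 4 h was within 5 kb of 27.2% (26.4 to 28.0) of those within 0.25 kb of a 0 h position. The share was 17.4% (15.9 to 18.9) for those 2 to 5 kb away. It was near 6.75% (5.27 to 8.50) of the sites at 5 to 10 kb and 7.05% (5.17 to 9.35) at 10 to 20 kb, then 9.96% (7.35 to 13.1) at 20 to 50 kb, 15.6% (10.8 to 21.5) at 50 to 100 kb and 17.1% (12.01 to 23.3) beyond 100 kb. Right at the boundary, over all counts, 10.6% of the 142 sites at 5 to 5.5 kb and 9.48% of the 232 comparison positions at 4.5 to 5 kb had H3K4me3. The lowest shares were thus at 5 to 20 kb from old H3K27me3. Beyond 100 kb the share was near that at 2 to 5 kb and below that within 0.25 kb.

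Among all isolated new sites, the 384 that were over 50 kb from 0 h H3K27me3 exceeded the 1024 at 5 to 10 kb in H3K4me3 at 4 h, with 16.4% against 7.13%, a difference of 9.28 points (5.25 to 13.3). Pol II at 2 h was near 9.90% of the far sites and 3.42% of the near ones, a difference of 6.48 points (3.29 to 9.67). Jmjd3 was near 11 sites of each set, 2.86% and 1.07%, with a difference of 1.79 points (0.00648 to 3.57). The far sites were also more often alone, with no other 4 h position within 5 kb of 71.6% against 25.3%. The share with none of H3K4me3, Pol II and Jmjd3 within 20 kb was 58.1% and 54.3%, and that difference of 3.78 points (-2.03 to 9.58) has an interval that includes 0.

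**Figure D5:**
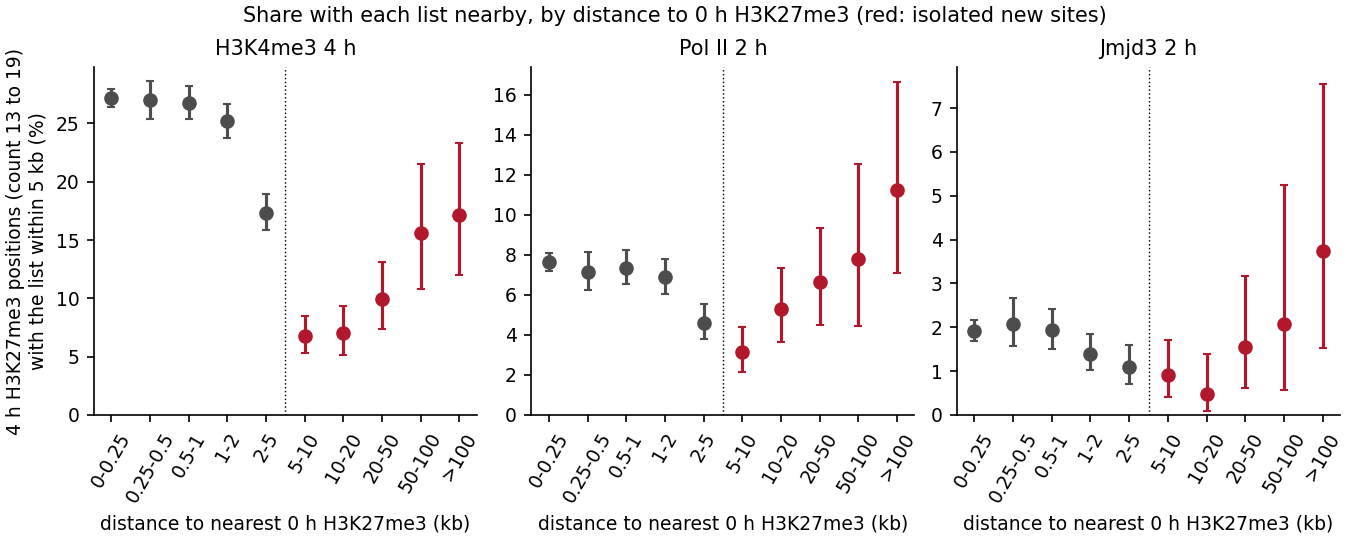
Percentage of 4 h H3K27me3 positions of count 13 to 19 with H3K4me3 at 4 h, Pol II at 2 h or Jmjd3 at 2 h within 5 kb (vertical axes, each with its own scale), by distance in kb to the nearest 0 h H3K27me3 position (horizontal axes), with exact 95% intervals. Isolated new sites (red) are lowest for H3K4me3 at 5 to 10 kb (6.75%) and reach 17.1% beyond 100 kb.

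Solitary sites had Pol II and H3K4me3 within 5 kb more often than accompanied ones. Pol II at 2 h was within 5 kb of 8.43% of the 1068 sites with no other 4 h position within 5 kb and of 3.47% of the 1441 with one, a difference of 4.96 points (3.04 to 6.87). For H3K4me3 at 4 h the shares were 10.96% and 7.84%, a difference of 3.11 points (0.782 to 5.44). Jmjd3 was near 1.40% and 1.18%, a difference of 0.225 points (-0.675 to 1.12). None of H3K4me3, Pol II and Jmjd3 was within 20 kb of 58.3% and 56.97%, a difference of 1.36 points (-2.55 to 5.27). Both intervals include 0. Sites of count 17 or more (299) had H3K4me3 at 4 h nearby in 14.7% and Pol II at 2 h in 10.7%, against 8.39% and 5.02% of the 1096 sites of count 13. Those differences were 6.32 points (1.98 to 10.7) and 5.68 points (1.95 to 9.42). All 6 sites of the chromosome 11 run, which is 1 place, are among the 44 taller sites with H3K4me3 and the 32 with Pol II. Jmjd3 was near 2.34% of the taller sites and 1.19% of those of count 13, a difference of 1.16 points (-0.675 to 2.98) with an interval that includes 0. None of the 3 kinds of list was within 20 kb of 49.5% of the taller sites and 58.4% of those of count 13, a difference of -8.90 points (-15.3 to -2.52).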

How the data were processed

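Each library came with a deposited peak list. Per the file headers, its value is an overlap count per position (per cluster for H3K4me3), which is treated here as an unscaled signal. The build is mm8, per the submitters' processing notes; not given in the sources used here were the aligner, peak caller, threshold and control. Sites, splits and distances were chosen with earlier results of these data known.

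Distances ran from the position to the nearest position or cluster edge. Alternatives, some chosen after seeing the data, are in the closing section. Comparison positions were weighted to the sites' exact counts, with 1 class above 40. Named sites were the 10 tallest, the 5 farthest from 0 h H3K27me3, the 5 longest runs, and the 5 tallest with Jmjd3 within 5 kb, at a 4 h H3K4me3 cluster, or with Pol II at 2 or 4 h and not 0 h. Sites with Jmjd3 within 250 bp were named after their values were seen. The calculation was tested on simulated lists, and used Python 3.11.15, numpy 2.4.6, pandas 2.3.3 and scipy 1.17.1.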

Additional observations from a re-analysis of the deposited data

How the results depend on the processing

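The number of isolated new sites depended strongly on the rule. It was 4970, 1485 and 845 with a 0 h distance of 2, 10 and 20 kb, 12923, 478 and 62 with a lowest count of 10, 16 and 20, and 10747 when only 0 h positions of count 13 or more removed a site. Differences in crowding (-57.1 to -13.0 points) and in H3K4me3 at 4 h (-29.5 to -2.19) and 0 h (-28.7 to -2.07) stayed below 0, with intervals that exclude it, under every alternative run. Crowding within 250 bp gave no value, since positions of a list are over 500 bp apart.

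Pol II and Jmjd3 did not hold 1 direction; the cause was not tested. Intervals of the following values include 0 unless stated. Differences in points for Pol II at 0, 2 and 4 h were 1.05, 0.333 and 0.593 at 10 kb, 2.20 (interval above 0), 1.36 and 1.53 at 20 kb, 1.52, 1.21 and 1.10 at a count of 16, and 4.98, 5.23 and 6.34 at 20. Counting Pol II within 250 bp they were 0.151, 0.216 and -0.00464, within 1 kb 0.00250, 0.112 and -0.249, and against comparison positions over 1 kb from 0 h 0.871, -0.354 and 0.295. For Pol II at 4 h, -1.58 within 20 kb and -0.849 without the chromosome ends had intervals that include 0. For Pol II at 0 h the interval came to exclude 0 at 2 kb (-1.69), at a count of 10 (-1.06), with the stricter 0 h list (-1.87), with 1 position per run (-3.03), within 20 kb (-2.49), unweighted (-2.98) and weighted to crowding too (-5.82). For Jmjd3 it did so in the same order, within 20 kb apart, at -0.524, -0.353, -0.999, -1.06, -1.07 and -1.65. Jmjd3 was 0.561 at 20 kb, 0.568 at a count of 20 and 0.00456 against positions over 1 kb from 0 h, all with intervals that include 0. Leaving out chromosome 2 or the tallest run changed no call. The tallest run, crowding and over 1 kb alternatives were chosen after seeing the data.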
